A study of Mus musculus with 9 samples.

Results

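Mitochondria carry their own ribosome, and nearly all of its protein is encoded in the nucleus by the Mrpl genes (large subunit) and the Mrps genes (small subunit). In mouse gastrocnemius, most of these genes were slightly higher in muscle without p38α, and in muscle without p38α and p38γ, than in control muscle. Of 78 genes with these names, 9 rose in the first knockout (11.5%, beside 7.32% of all tested genes). In the second knockout 11 rose (14.1%, beside 11.2%), a share near that of all genes, and 0 fell in either. Among the 11 is Mrps36, known from another complex and described below. Over all settings tried, the members called higher ran from 0 to 47 and from 2 to 45. All tested genes called higher ran from 80 to 2506 and from 339 to 3338. The middle member differed by 0.18 and 0.16 on the log2 scale from control, and the large and small subunits gave nearly the same medians. The 3 members with the most stable rise were Mrps35, Mrps10 and Mrpl41.

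The members are all rows of the deposited table of normalised values whose gene symbol is Mrpl or Mrps, a number and at most 1 further letter. There were 78 of them among 13179 rows, 49 named for the large and 29 for the small subunit. All 78 passed the filter on low values (at least 1 in at least 3 libraries) that left 13137 genes for testing. The rule used names alone and no measured value, but the members were chosen with earlier results of these data known.

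Polyadenylated RNA of the gastrocnemius, a hindlimb muscle rich in fast fibres, was sequenced after the mice had eaten a high-fat diet for 6 weeks. The 9 libraries form 3 groups of 3, and every group had this diet. The first group was labelled control. The second, labelled p38alphaMCK-KO and called p38α knockout here, lacked p38α (Mapk14), and the third, labelled p38alpha/gammaMCK-KO and called p38α/γ knockout, lacked p38α and p38γ (Mapk12). MCK stands, as commonly used, for muscle creatine kinase, whose promoter is active in muscle fibres, so other cells of the muscle keep the kinases. The labels used here give no age or sex, and do not say that each library came from a separate animal. The p-values therefore measure the spread between libraries. The design sets both knockouts against control, which makes those 2 comparisons share control libraries, and then sets 1 knockout against the other.

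The mitochondrial ribosome translates the few respiratory chain and ATP synthase subunits that mitochondrial DNA encodes. It is built around 2 ribosomal RNAs that are transcribed in the mitochondrion, while its proteins are made in the cytosol and imported. Many of its proteins have bacterial homologues, and many others are specific to mitochondria. Loss of single members is known to impair oxidative phosphorylation. The p38 kinases are stress-activated MAP kinases, and p38α is known to act on PGC-1α (Ppargc1a), a coactivator of mitochondrial genes.

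Mapk14 was low in both knockouts, and Mapk12 was lowest in the p38α/γ knockout and intermediate in the p38α knockout. Mapk14 was 143 to 157 in controls, 40.3 to 45.5 in the p38α knockout and 37.0 to 54.7 in the p38α/γ knockout. Mapk12 was 138 to 152 in controls, 96.5 to 105 in the p38α knockout and 31.2 to 35.5 in the p38α/γ knockout. Values in each library were whole multiples of one step after an offset of 0.5 step (largest departure 2.9e-09). Read as reads, these add up to 23820000 to 27940000 per library, and no member in any library came to fewer than 206. The summed values per library were 1058000 to 1132000 in controls, 896800 to 992500 in the p38α knockout and 933300 to 976000 in the p38α/γ knockout. The muscle-defining genes Acta1, Ckm, Des, Ttn, Myh1, Myh4, Mylpf and Tnnt3 were all present in every library, the lowest at 2739. Replicate 1 of the p38α knockout stood apart from the other 2 libraries of its group on the first principal component, at 35.98 against 1 and -9.15, so results are also given without it.

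The promoters of 6 members are shown because they carry or lack 2 motifs of mitochondrial gene regulators in members with different outcomes. Each is the stretch, 5′ to 3′ on the gene's strand, nearest to the RefSeq start that lies outside every exon of GENCODE M21 (RefSeq sequence, GRCm38.p6). It ends 18 bases before that start in Mrpl9, 3 before it in Mrpl22 and at it in the other 4. Capitals mark CGCATGCGC, the core bound by NRF1, or its reverse complement in Mrpl9 and Mrpl22, and CCGGAAGT, an ETS-type site bound by GABPA, in Mrpl43 and Mrps22. Mrpl41 and Mrps9 hold neither.
Mrpl9 (chr3:94443198-94443317, plus strand): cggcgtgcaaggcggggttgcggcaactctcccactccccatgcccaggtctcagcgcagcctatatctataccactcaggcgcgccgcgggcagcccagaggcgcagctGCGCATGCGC
Mrpl22 (chr11:58171541-58171660, plus strand): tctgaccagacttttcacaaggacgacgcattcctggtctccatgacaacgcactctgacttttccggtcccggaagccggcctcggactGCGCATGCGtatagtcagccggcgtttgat
Mrpl43 (chr19:45006443-45006557, minus strand): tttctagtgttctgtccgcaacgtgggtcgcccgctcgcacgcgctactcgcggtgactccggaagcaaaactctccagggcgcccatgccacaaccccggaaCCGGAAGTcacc
Mrps22 (chr9:98601680-98601799, minus strand): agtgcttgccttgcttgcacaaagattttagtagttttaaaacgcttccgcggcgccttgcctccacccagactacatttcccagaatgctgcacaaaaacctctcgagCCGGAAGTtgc
Mrpl41 (chr2:24975099-24975218, minus strand): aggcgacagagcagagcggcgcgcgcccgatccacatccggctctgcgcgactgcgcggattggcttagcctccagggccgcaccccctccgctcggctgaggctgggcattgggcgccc
Mrps9 (chr1:42851113-42851232, plus strand): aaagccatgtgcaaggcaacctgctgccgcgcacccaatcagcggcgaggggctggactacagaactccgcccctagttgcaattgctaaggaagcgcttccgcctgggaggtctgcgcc

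RefSeq promoters, from 250 bases before to 50 after the start, were matched for 69 of the 78 members. The NRF1 letters, on either strand, stood in 7 of 69 (10.1%), against 4.04% of 9790 tested genes and 1.95% of all 27025 promoters. The GABPA letters stood in 12 (17.4%), against 8.89% and 4.31%. The YY1 letters AAGATGGCG stood in 8 (11.6%), against 3.61% and 1.64%. The E-box CACGTG stood in 5 (7.25%), against 11.9% and 8.09%, and the oestrogen-related receptor letters TCAAGGTCA in 0, against 0.347% and 0.466%. By subunit, the NRF1 letters were in 6 of 43 large and 1 of 26 small subunit promoters, and the GABPA letters in 8 and 4. The palindromic NRF1 match in Mrpl9 counts on both strands but as 1 promoter. The 7 members with the NRF1 letters had median log2 changes of 0.30 in the p38α knockout and 0.18 in the p38α/γ knockout, and the 62 without had 0.17 and 0.13. The 12 with the GABPA letters had 0.17 and 0.15, and the 57 without 0.18 and 0.13. The 8 with the YY1 letters had 0.23 and 0.10, and the 61 without 0.17 and 0.14. Called higher in the 2 knockouts were 1 and 1 of the members with the NRF1 letters and 0 and 2 with the GABPA letters. With the YY1 letters, and with the E-box, 0 were called in either. Of all tested genes 7.32% and 11.2% were called higher, so lists this small can easily hold 0 calls. A match of letters is a description and not a binding site. Promoters of Mrpl4, Mrpl13, Mrpl15, Mrpl19, Mrpl38, Mrpl54, Mrps28, Mrps34 and Mrps35 were not analysed here.

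Many members have a neighbouring gene start. A protein-coding gene started on the other strand within 1000 bases upstream, or overlapped the start by at most 500, for 30 of the 78 members (38.5%), against 14.6% of 12199 tested protein-coding genes. Mrps11 and Mrpl46, of the small and the large subunit, start 30 bases apart and share 1 promoter region. Their log2 changes were 0.30 and 0.27 in the p38α knockout and 0.20 and 0.09 in the p38α/γ knockout, none of them called. Head-to-head partners did not all move like the member. Sars2, the mitochondrial seryl-tRNA synthetase, rose beside Mrps12 by 0.50 (adjusted p = 0.0090) and 0.41 (adjusted p = 0.016), while Mrps12 itself gave 0.14 and 0.13. Zfp189 fell beside Mrpl50 in both, by 0.50 (adjusted p = 0.027) and 0.39 (adjusted p = 0.04996). Mrpl50 itself gave -0.18 and -0.18, the same direction as Zfp189. In the opposite direction, Zfp661 fell by 0.50 in the p38α/γ knockout (adjusted p = 0.020) beside Mrps5, which gave 0.11. Ptcd2 rose by 0.49 in the p38α knockout (limma, adjusted p = 0.0074) beside Mrps27 at 0.26. In the p38α/γ knockout Fau rose by 0.42 (adjusted p = 0.033) beside Mrpl49 at 0.16. There Hira fell by 0.40 (adjusted p = 0.046) beside Mrpl40 at 0.05, and Apba3 by 0.32 (adjusted p = 0.019) beside Mrpl54 at -0.003. No other tested partner was called. Exons of 22 members overlap a gene on the other strand and 4 overlap one on the same strand, including Mrps6 with Slc5a3. How strand entered the counting is not given in the sources used here, so reads of these pairs may not be cleanly separated.

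In control muscle the level per kb of exon differed widely among members. Among large subunit genes it ran from 2.87 for Mrpl19 to 268 for Mrpl42, with a median of 24.5. The next lowest were Mrpl17 at 4.92 ± 0.36 and Mrpl47 at 5.05 ± 0.91, and the next highest Mrpl33 at 123 ± 7.4 and Mrpl30 at 88.0 ± 5.5 (SD, n = 3). Among small subunit genes it ran from 3.72 for Mrps25 to 154 for Mrps21, with a median of 18.2. Mrps35 at 4.28 ± 0.21 and Mrps17 at 5.44 ± 0.02 were the next lowest, and Mrps36 at 65.9 ± 2.8 and Mrps15 at 53.7 ± 3.8 the next highest. Genes of the same particle were thus measured at very unequal levels per kb. The lengths join the exons of all annotated coding transcripts, which lowers the value of genes with long alternative ends, such as Mrpl17 with 7605 bases.

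**Figure D1:**
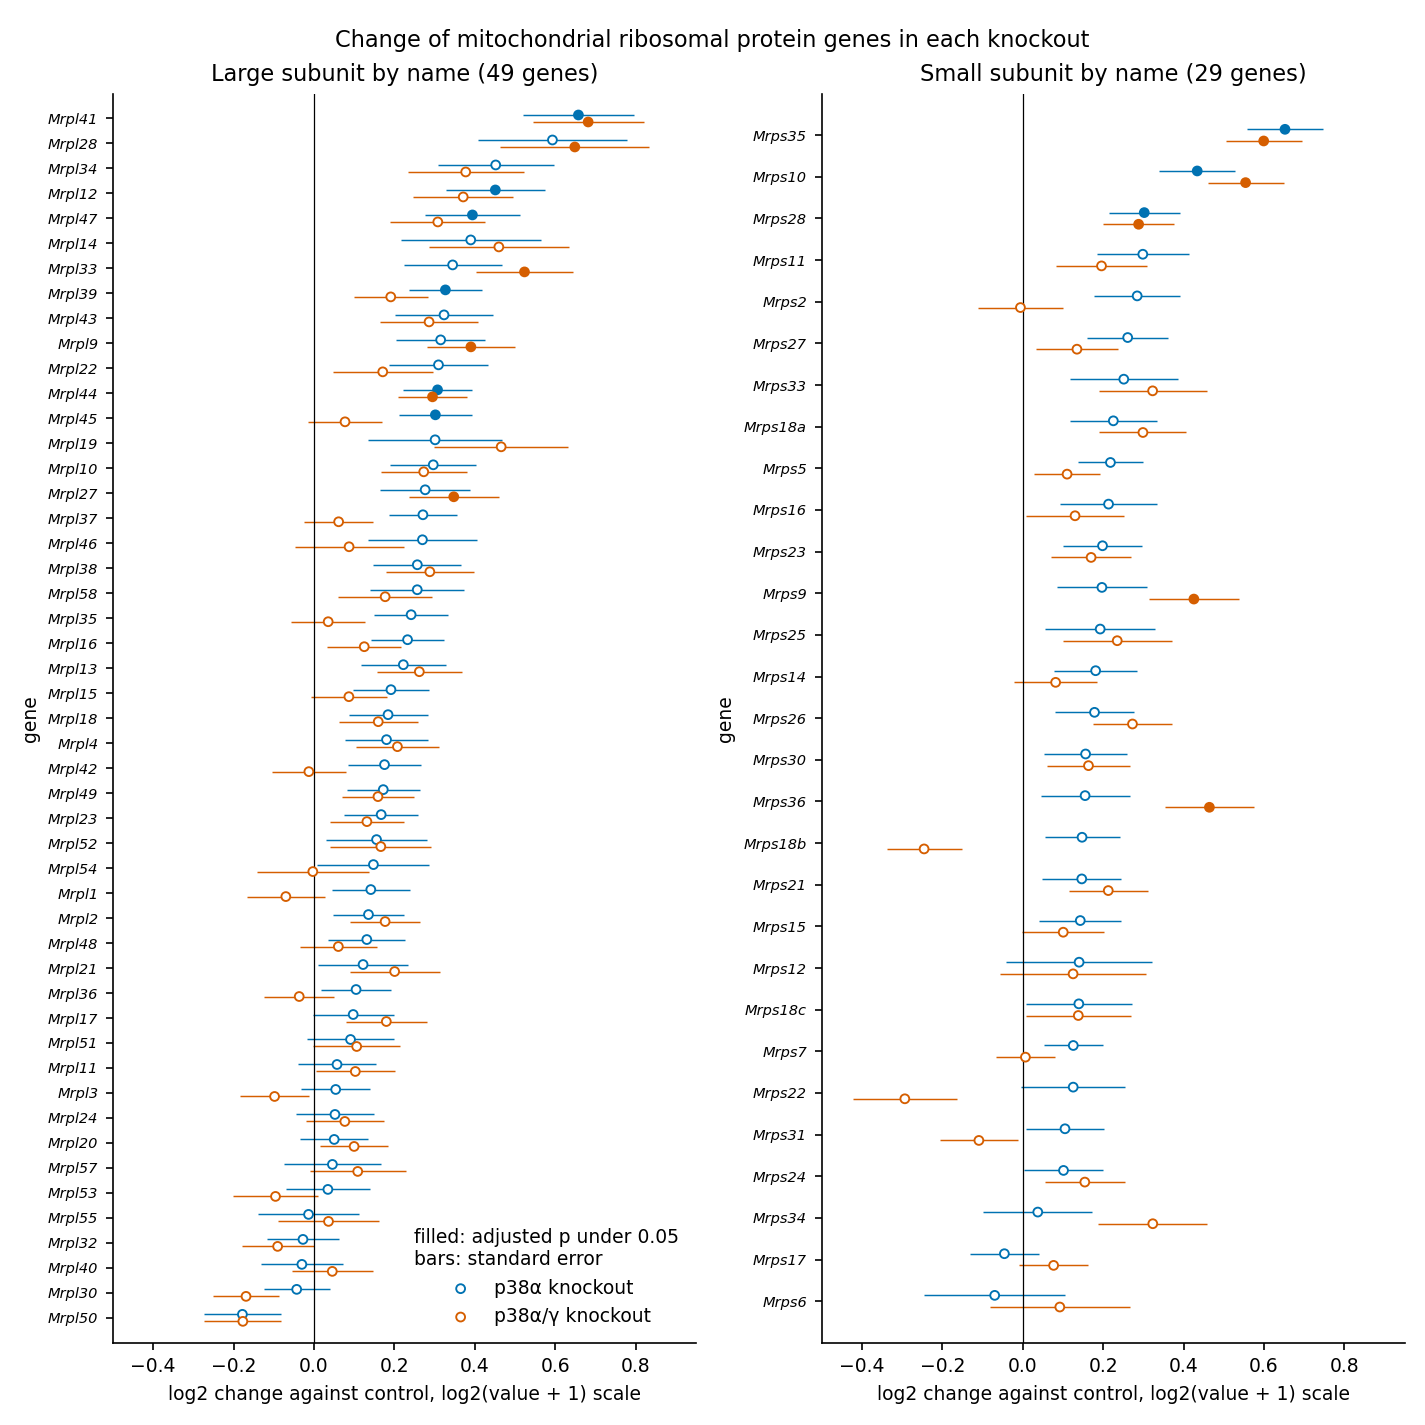
Log2 change against control (x axis, log2 of value + 1) of the 49 large (left) and 29 small subunit genes (right), ordered by the change in the p38α knockout; blue points are the p38α knockout, orange the p38α/γ knockout, bars the standard error, and filled points adjusted p under 0.05. Most points lie to the right of 0, 71 of 78 for the p38α knockout and 65 of 78 for the p38α/γ knockout, and no filled point lies to the left.

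In the p38α knockout, 9 of the 78 members rose and 0 fell (limma, adjusted p under 0.05 over all tested genes; 0 lower also at an unadjusted p under 0.05). This is 11.5% of the members, beside 7.32% of all tested genes called higher and 10.4% called lower. The change was positive for 71 members (91.0%), with a median of 0.18 beside 0.01 over all tested genes. All 3 knockout libraries lay above all 3 controls for 38 members (48.7%), beside 17.6% of all tested genes, and below them for 0, beside 21.1%. Without replicate 1 of the p38α knockout, 6 members rose, when 941 of all tested genes did, 66 changes were positive and the median was 0.13. The count of called members ranged from 1 (without control 2) to 14 (without replicate 3 of the p38α knockout) when each library was left out, and scaling to each library's total, added after the data were seen, gave 47. In these 3 settings 393, 1501 and 2506 of all tested genes were called higher, beside 962 in the main fit.

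In the p38α/γ knockout, 11 members rose and 0 fell by limma (2 lower at an unadjusted p under 0.05). The 11 are 14.1% of the members, beside 11.2% of all tested genes called higher and 14.4% called lower. The change was positive for 65 (83.3%), with a median of 0.16 beside 0.02 over all tested genes. The groups did not overlap for 32 members on the higher side (41.0%), beside 26.4% of all genes, and for 5 on the lower side, beside 28.6%. Correlations of the same-numbered libraries led to these samples being taken as pairs, though the labels do not say what a number marks. The 11 come from the fit without this pairing. With the numbers as a block 7 members rose, all among the 11, when 1029 of all tested genes did. The count was 2 without replicate 2 of the p38α/γ knockout, when 339 of all tested genes were called higher. It was 3 without replicate 3 of that group, without control 2 or without control 3, when 443, 716 and 470 of all tested genes were. It was 23 without replicate 1 of the p38α knockout, a library outside this comparison that enters through the shared estimate of spread. Without that library 2548 of all tested genes were called higher, beside 1476 with it. On the 6 libraries of this comparison alone, 23 members rose and 2 fell, when 2619 and 2917 of all tested genes did. Scaling to library totals gave 45 higher.

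Scaling to totals moved the median of all tested genes to 0.19 in the p38α knockout and 0.20 in the p38α/γ knockout, where 2506 and 3338 genes were called higher. The members' medians under it were 0.38 and 0.36, or 0.19 and 0.16 above the median of all genes, beside 0.17 and 0.14 with the values as deposited. Quantile normalisation gave 13 and 15 called members, when 891 and 1349 of all tested genes were called higher, with medians 0.26 and 0.20 above that of all genes.

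The 2 subunits gave like values. In the p38α knockout, 6 of 49 large (12.2%) and 3 of 29 small subunit genes (10.3%) rose, beside 7.32% of all genes, with medians of 0.18 and 0.18. In the p38α/γ knockout, 6 (12.2%) and 5 (17.2%) rose, beside 11.2% of all genes, with medians of 0.16 and 0.15. The summed small subunit values were 0.474 to 0.479 of the large in controls, 0.465 to 0.479 in the p38α knockout and 0.484 to 0.489 in the p38α/γ knockout. These shares overlap between control and p38α knockout, and the p38α/γ knockout lies above both by at most a few hundredths. The small sums hold Mrps36, described below, which averaged 46.2 in controls, 51.8 in the p38α knockout and 64.2 in the p38α/γ knockout. The shares were not redone without it, so the separation is not shown for ribosomal proteins alone. Moving Mrps18a and Mrps30 to the large subunit, where the mature ribosome holds them, and leaving out Mrps36 gave medians of 0.18 and 0.18 in the p38α knockout and 0.16 and 0.14 in the p38α/γ knockout.

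**Figure D2:**
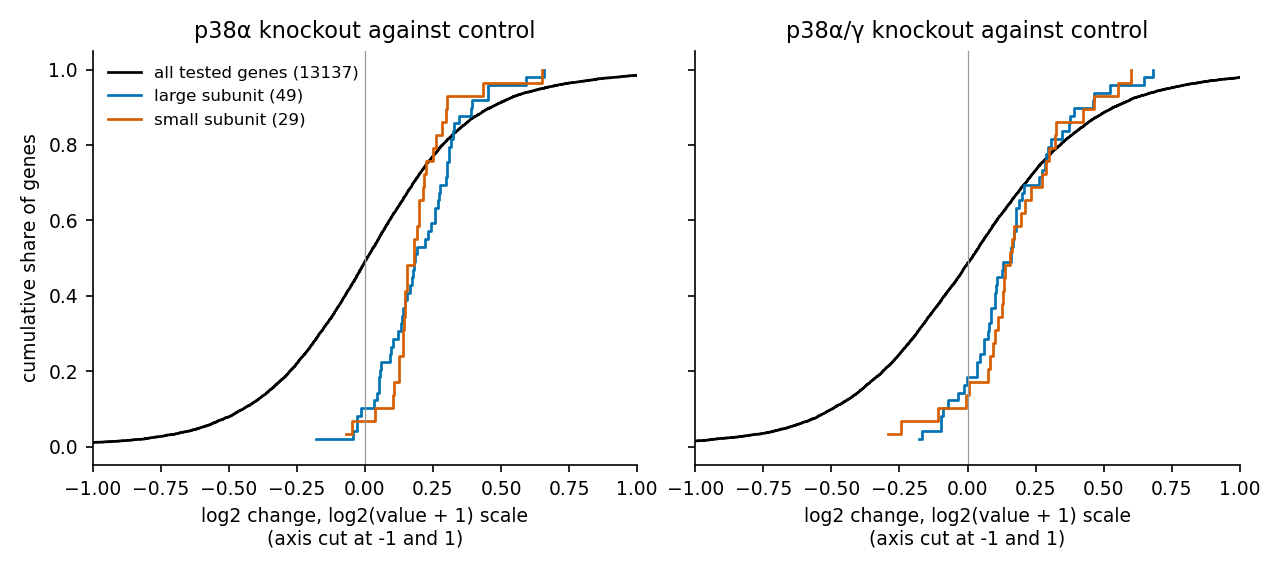
Cumulative share of genes (y axis) against log2 change from control (x axis, log2 of value + 1, shown from -1 to 1) for all 13137 tested genes (black), 49 large (blue) and 29 small subunit genes (orange). In both panels the 2 subunit curves run close together, cross the middle between 0.15 and 0.18, and are steeper than that of all genes, whose median is 0.01 and 0.02.

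Genes numbered like bacterial proteins (Mrpl1 to Mrpl36 and Mrps1 to Mrps21) and those with higher numbers, which are mostly specific to mitochondria, also had similar medians. For 44 of the first kind these were 0.18 and 0.13, with 2 (4.55%) and 6 (13.6%) called higher. For 34 of the second kind they were 0.18 and 0.16, with 7 (20.6%) and 5 (14.7%) called higher. Beside the 7.32% and 11.2% of all genes, the first kind was called less often than all genes in the p38α knockout, and no difference between the kinds was tested. The split by number is approximate, since homology to bacterial proteins is described for Mrpl47 and Mrps28 too.

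Mrps35 (chr6:147042764-147073991, plus strand, GRCm38), a mitochondria-specific protein of the small subunit, had the lowest adjusted p of the members in both knockouts. Its values were 18.8, 17.2 and 17.4 in controls, 29.4, 28.4 and 27.9 in the p38α knockout, and 24.3, 28.97 and 29.5 in the p38α/γ knockout. All 6 knockout libraries lay above all controls. The change was 0.65 ± 0.10 (SE, 1.57-fold, adjusted p = 0.0035) in the p38α knockout and 0.60 ± 0.10 (1.51-fold, adjusted p = 0.0052) in the p38α/γ knockout, and the call remained when any 1 library was left out.

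Mrps10 (chr17:47368887-47381417, plus strand), the homologue of a bacterial protein of the small subunit head, was 26.3, 21.2 and 23.4 in controls. It was 32.9, 31.9 and 31.9 in the p38α knockout and 32.9, 36.2 and 36.4 in the p38α/γ knockout. No knockout library overlapped the controls, and the group SD was smallest in the p38α knockout (0.56, against 2.57 in controls). The changes were 0.43 ± 0.09 (1.35-fold, adjusted p = 0.015) and 0.55 ± 0.09 (1.47-fold, adjusted p = 0.0062). The p38α knockout call ended without control 2 or control 3 (highest adjusted p = 0.062).

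Mrpl41 (chr2:24974117-24975098, minus strand), a mitochondria-specific protein of the large subunit, was 19.9, 17.1 and 20.96 in controls, 30.8, 28.7 and 33.7 in the p38α knockout and 25.5, 36.5 and 33.6 in the p38α/γ knockout. Again all knockout libraries lay above the controls, with the widest spread in the p38α/γ knockout. The changes were 0.66 ± 0.14 (1.58-fold, adjusted p = 0.014) and 0.68 ± 0.14 (1.60-fold, adjusted p = 0.011). Each call ended at the margin without 1 library, that in the p38α knockout without control 2 (adjusted p = 0.054) and that in the p38α/γ knockout without its replicate 2 (adjusted p = 0.051).

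Mrpl44 and Mrps28 also rose in both, by smaller amounts. Mrpl44, which carries a fold related to RNase III and lies near the peptide exit, was 32.4 to 38.4 in controls, 43.5 to 44.9 in the p38α knockout and 42.0 to 45.9 in the p38α/γ knockout. Its changes were 0.31 ± 0.08 (adjusted p = 0.036) and 0.29 ± 0.08 (adjusted p = 0.033). Mrps28, of the small subunit, was 35.3 to 39.3, 45.0 to 48.7 and 42.3 to 49.2, and its changes were 0.30 ± 0.09 (adjusted p = 0.043) and 0.29 ± 0.09 (adjusted p = 0.040). Neither knockout overlapped the controls for either gene. In the p38α/γ knockout the block ended the calls of Mrpl44 (adjusted p = 0.058) and Mrps28 (adjusted p = 0.077), and leaving out 1 library ended each call for 6 to 8 of 9 libraries. The calls of the other 10 members ended for 4 to 8 of 9.

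**Figure D3:**
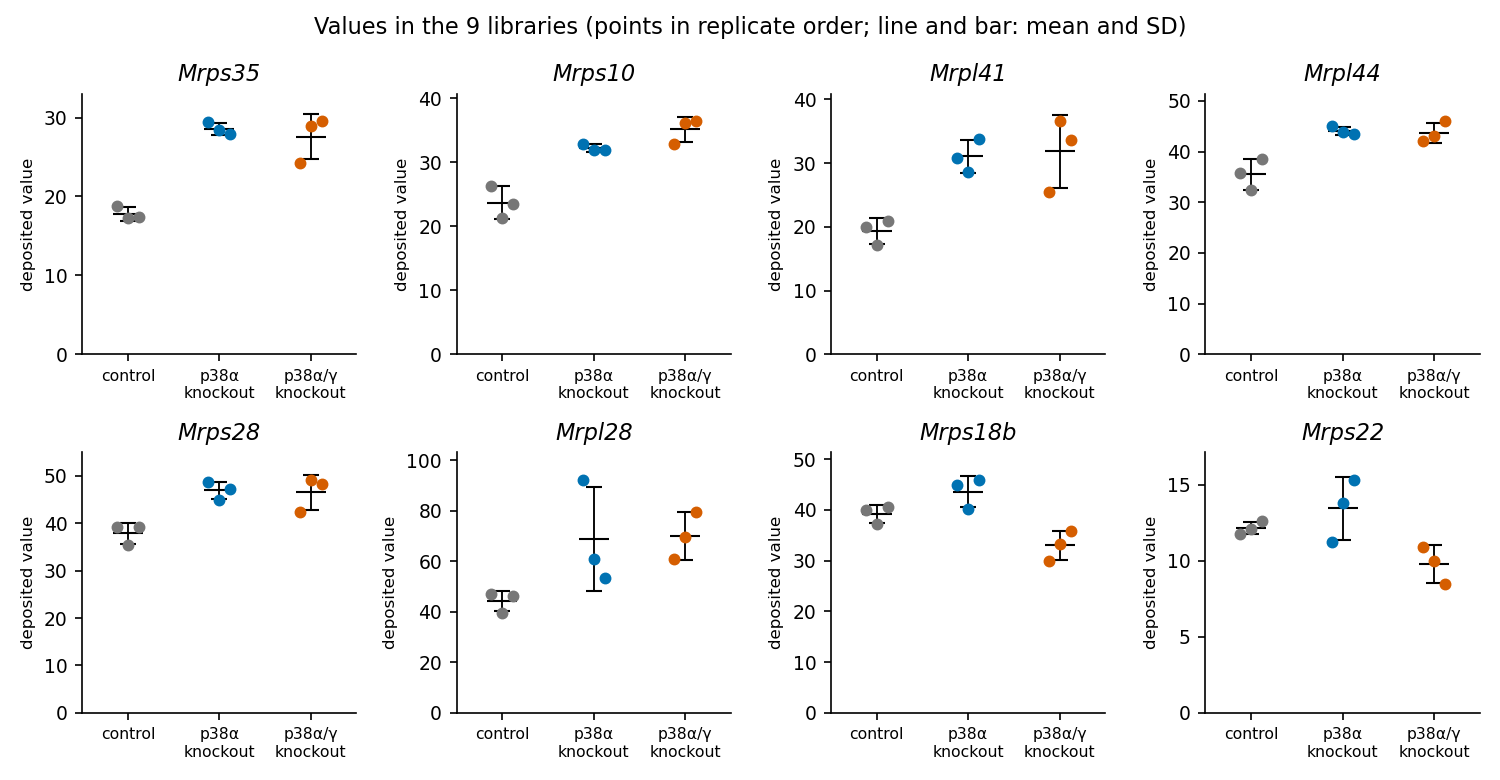
Deposited values (y axis, from 0) of 8 members in the 9 libraries, grouped on the x axis as control (grey), p38α knockout (blue) and p38α/γ knockout (orange), with the mean and SD of each group of 3. Mrps35, Mrps10, Mrpl41, Mrpl44 and Mrps28 lie above the controls in all knockout libraries, Mrpl28 has 1 far higher p38α knockout library at 92.2, and Mrps18b and Mrps22 have all p38α/γ knockout libraries below all controls.

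Among the stalk proteins, which recruit translation factors to the large subunit, Mrpl12 rose in the p38α knockout. It was 89.8 to 99.8 in controls and 117 to 157 in the p38α knockout, a change of 0.45 ± 0.12 (adjusted p = 0.035). It was 111 to 136 without both kinases, a change of 0.37 ± 0.12 (adjusted p = 0.052). Mrpl10, which anchors the stalk, gave 0.30 and 0.27 (adjusted p = 0.082 and 0.085), and Mrpl11, at its base, 0.06 and 0.10.

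At the peptide exit, 4 of 8 members rose in the p38α knockout and 1 in the p38α/γ knockout, beside 7.32% and 11.2% of all genes. One of the 4, Mrpl47, was added to this group after its values were seen, and without it 3 of 7 and 1 of 7 rose. Mrpl45, which contacts the inner membrane, was 47.2, 47.5 and 50.4 in controls and 56.0, 57.0 and 67.1 in the p38α knockout, a change of 0.30 ± 0.09 (adjusted p = 0.047). Without both kinases it was 48.7 to 53.7, which overlaps the controls, and the change was 0.08 (adjusted p = 0.54). Mrpl39 was 18.4 to 20.8 in controls and 22.8 to 26.7 in the p38α knockout, a change of 0.33 ± 0.09 (adjusted p = 0.037), and gave 0.19 in the p38α/γ knockout (adjusted p = 0.14). Mrpl44, described above, was called in both. The other members of this group, Mrpl17, Mrpl22, Mrpl23 and Mrpl24, gave 0.05 to 0.31 and 0.08 to 0.18 with no call. Mrpl47, the counterpart of bacterial L29, was 15.2 to 20.5 in controls and 21.1 to 23.7 in the p38α knockout, a change of 0.39 ± 0.12 (adjusted p = 0.046), and gave 0.31 in the p38α/γ knockout (adjusted p = 0.080).

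Near the peptidyl transferase centre, Mrpl27 rose in the p38α/γ knockout. It was 21.2, 21.8 and 22.9 in controls and 24.9, 28.2 and 32.0 in that knockout, a change of 0.35 ± 0.11 (adjusted p = 0.047; 0.077 with the block). The p38α knockout values of 24.5, 26.2 and 30.002 also lay above the controls, at 0.28 (adjusted p = 0.11). Mrpl2, Mrpl3, Mrpl4 and Mrpl16 gave 0.05 to 0.23 in the p38α knockout and -0.10 to 0.21 in the p38α/γ knockout, with no call. In the central protuberance, Mrpl18, Mrpl38, Mrpl40, Mrpl46 and Mrpl48 gave -0.03 to 0.27 and 0.05 to 0.29, with no call. Mrpl58, a peptidyl-tRNA hydrolase built into the large subunit that can release stalled chains, gave 0.26 and 0.18 (adjusted p = 0.15 and 0.28).

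In the p38α/γ knockout, Mrpl33, Mrpl9 and Mrpl28 of the large subunit and Mrps9 of the small subunit rose as well. Mrpl33 was 54.8 to 61.8 in controls and 72.8, 89.6 and 92.8 in the p38α/γ knockout, a change of 0.52 ± 0.12 (adjusted p = 0.017), and 67.6 to 86.6 in the p38α knockout, a change of 0.34 (adjusted p = 0.078). Mrpl9, whose promoter holds the NRF1 letters, was 52.7 to 58.1 in controls, 63.9 to 80.5 in the p38α knockout and 66.7 to 80.2 in the p38α/γ knockout. Its changes were 0.32 ± 0.11 (adjusted p = 0.075) and 0.39 ± 0.11 (adjusted p = 0.031). All libraries of both knockouts were above the controls for these 2 genes.

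Mrpl28 was 39.5 to 46.9 in controls, 53.4, 60.9 and 92.2 in the p38α knockout and 60.9, 69.6 and 79.6 in the p38α/γ knockout. The changes were 0.59 ± 0.18 (adjusted p = 0.052) and 0.65 ± 0.18 (adjusted p = 0.032; 0.054 with the block). Replicate 1 of the p38α knockout is the high value, and these were the largest standard errors among the members. Mrps9, whose printed promoter holds neither motif, was 30.8 to 38.4 in controls and 44.3 to 49.5 in the p38α/γ knockout, a change of 0.43 ± 0.11 (adjusted p = 0.025), and its p38α knockout values of 35.7 to 45.2 overlapped the controls (0.20, adjusted p = 0.24).

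Mrps36 carries a ribosomal name but is known as a component of the 2-oxoglutarate dehydrogenase complex. It was 44.1, 46.5 and 47.9 in controls, 47.4, 47.8 and 60.4 in the p38α knockout and 58.2, 65.6 and 68.9 in the p38α/γ knockout. The changes were 0.16 ± 0.11 (adjusted p = 0.35) and 0.46 ± 0.11 (adjusted p = 0.018). The other name exceptions, Mrps18a and Mrps30, gave 0.23 and 0.16 in the p38α knockout and 0.30 and 0.16 in the p38α/γ knockout, none called.

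No member was called lower in either comparison, at the spread of all 9 libraries. Mrpl50, Mrpl30, Mrps22, Mrps18b and Mrps31 had all p38α/γ knockout libraries below all controls. Mrps22, a mitochondria-specific gene mutated in human oxidative phosphorylation deficiency, was 11.8, 12.1 and 12.6 in controls and 10.9, 10.006 and 8.46 in the p38α/γ knockout. Its change was -0.29 ± 0.13 (adjusted p = 0.12), against 0.13 in the p38α knockout, whose values were 11.2, 13.8 and 15.3. Mrps18b, 1 of 3 paralogues of the bacterial small subunit protein of that number, was 37.3 to 40.6 in controls and 30.001, 33.3 and 35.7 in the p38α/γ knockout, a change of -0.25 ± 0.09 (adjusted p = 0.079). On the 6 libraries alone these were the 2 called lower (adjusted p = 0.049 for Mrps22 and 0.039 for Mrps18b), when 2917 of all tested genes were. Mrps18a and Mrps18c gave 0.30 and 0.14 in the same knockout.

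The small subunit genes around the decoding site and the mRNA path gave no call. Mrps2, Mrps5, Mrps7 and Mrps12 gave 0.13 to 0.28 in the p38α knockout and -0.01 to 0.13 in the p38α/γ knockout. For Mrps2, Mrps5 and Mrps7 all p38α knockout libraries were above the controls, and for Mrps12 they were not, with replicate 1 at 38.1 and the others at 25.6 and 22.8. Of 13 members known as genes of human mitochondrial disease, Mrpl12, Mrpl44 and Mrps28 rose in the p38α knockout (23.1%, beside 7.32% of all genes). Mrpl44 and Mrps28 rose in the p38α/γ knockout (15.4%, beside 11.2%). The medians over the list were 0.19 and 0.13.

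Between the knockouts, 0 of 78 members were called in either direction by limma, beside 0.122% of all tested genes called higher and 0.32% called lower in the p38α knockout. At an unadjusted p under 0.05 there were 7 members. The median was 0.01 beside -0.01 over all genes, and the 95% interval of a member's difference reached 0.23 to each side at the median and 0.41 at most. The groups did not overlap for 10 members on the higher side, beside 6.73% of all genes, and for 1, Mrps10, on the lower side, beside 7.58%. The 4 members with the lowest p were Mrps18b at 0.39 (interval 0.18 to 0.60, adjusted p = 0.14), Mrps22 at 0.42 (0.13 to 0.71, adjusted p = 0.24), Mrps36 at -0.31 (-0.56 to -0.06, adjusted p = 0.30) and Mrps2 at 0.29 (0.05 to 0.53, adjusted p = 0.32). Without replicate 1 of the p38α knockout, Mrps18b, Mrps22 and Mrps31 were called higher and Mrpl19, Mrps34 and Mrps36 lower in the p38α knockout, when 1013 and 859 of all tested genes were.

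The members moved together from library to library. Control 2 was the lowest control for 64 of 78 members. In the p38α knockout, replicate 1 was the highest for 63, and in the p38α/γ knockout replicate 1 was the lowest for 64 and replicate 3 the highest for 60. The median deviation from the control mean was 0.06, -0.09 and 0.02 in the controls, 0.32, 0.11 and 0.12 in the p38α knockout and 0.04, 0.18 and 0.23 in the p38α/γ knockout. Replicate 1 of the p38α/γ knockout thus lay within the range of the controls, below control 1 at 0.06, and the other knockout libraries lay above it. The members are therefore not independent of each other.

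**Figure D4:**
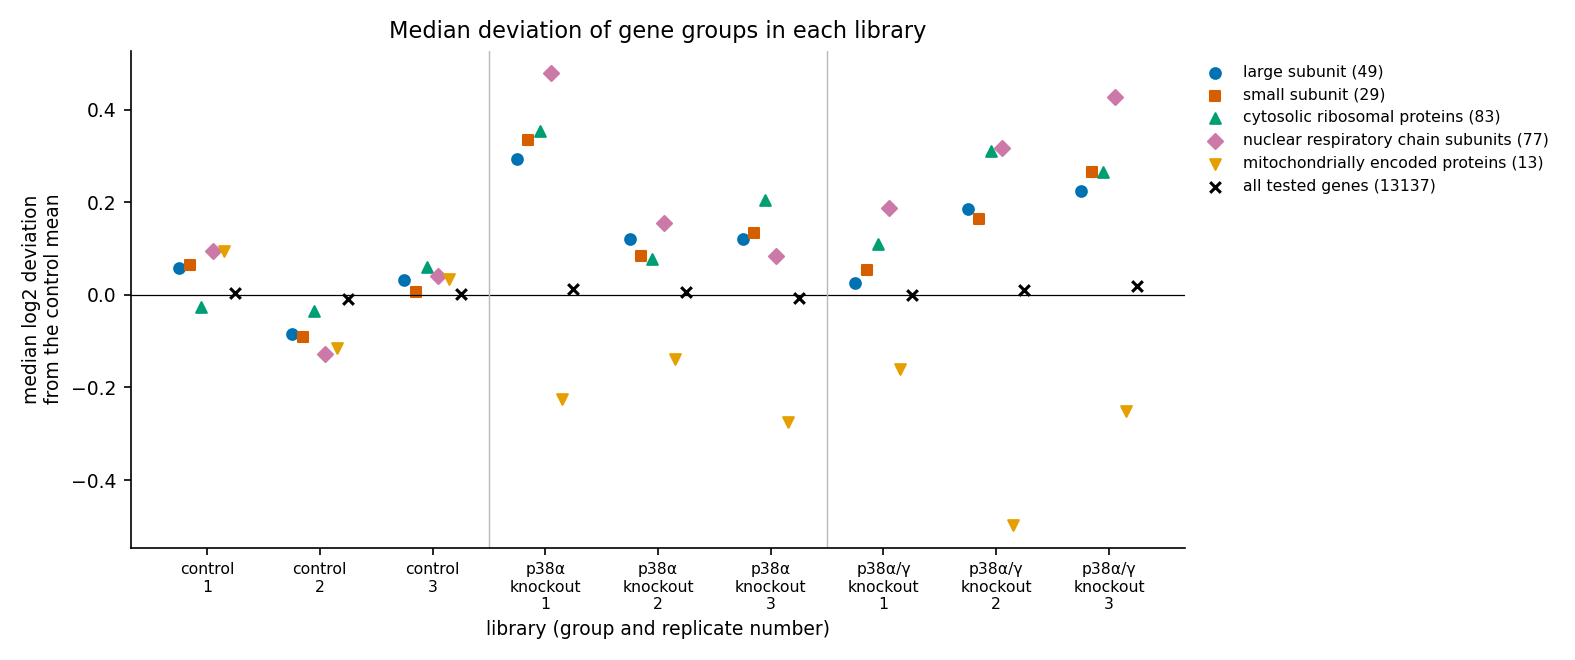
Median log2 deviation from the control mean (y axis) in each of the 9 libraries (x axis, by group and replicate number) for 6 gene groups marked by shape. Large and small subunit genes lie close to each other in every library and between 0.03 and 0.33 in the knockouts, with cytosolic ribosomal proteins and nuclear respiratory chain subunits on the same side, mitochondrially encoded proteins below 0 in all knockout libraries, and all tested genes within 0.02 of 0.

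Genes of the cytosolic ribosome and of the respiratory chain had positive medians too. Of 83 cytosolic ribosomal protein genes, 5 (6.02%) rose in the p38α knockout and 25 (30.1%) in the p38α/γ knockout, with medians of 0.22 and 0.25. Of 77 nuclear genes of respiratory chain subunits, 2 (2.6%) and 25 (32.5%) rose, with medians of 0.25 and 0.29. Beside the 7.32% and 11.2% of all genes, both families had a lower share called in the p38α knockout and a higher one in the p38α/γ knockout. The members' medians of 0.18 and 0.16 were below those of both families, and no test between families was made.

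The partners of the ribosome gave unlike medians. For 27 assembly genes these were 0.15 (21 positive) and 0.05 (16 positive), for 15 translation factors 0.02 and -0.04, and for 5 further ribosomal proteins named otherwise 0.22 (5 positive) and 0.01 (3 positive). Of the assembly genes, Mrm2, Mettl17, Noa1 and Mtg1 rose in the p38α knockout (14.8%, beside 7.32% of all genes). In the p38α/γ knockout Trub2, Mrm2 and Mettl17 rose (11.1%, beside 11.2% of all genes) and Fastkd2 fell. Mrm2, which methylates the large ribosomal RNA, gave 0.71 ± 0.14 (adjusted p = 0.010) and 0.49 ± 0.14 (adjusted p = 0.032). Of the translation factors, the elongation factors Tufm (0.35 and 0.29, adjusted p = 0.031 and 0.048) and Tsfm (0.67 and 0.57, adjusted p = 0.033 and 0.045) rose in both knockouts, and the recycling factor Mrrf fell by 0.51 in the p38α/γ knockout (adjusted p = 0.0064). The 2 that rose are 13.3% of the list in each knockout, beside 7.32% and 11.2% of all genes. Of the further ribosomal proteins, Dap3 gave 0.23 and 0.20 (adjusted p = 0.057 and 0.071) and Ptcd3 0.22 and -0.08, with no call in the list.

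Of 10 mitochondrial transcription genes, Tfb2m fell by 0.52 in the p38α/γ knockout (adjusted p = 0.022). Of 10 regulators, 2 rose and 1 fell in the p38α knockout, and 2 rose and 3 fell in the p38α/γ knockout. Beside these 2 lists stand 7.32% and 11.2% of all tested genes called higher in the 2 knockouts, and 10.4% and 14.4% called lower. With 10 genes a list, such counts give no more than a rough share. Ppargc1a rose in both knockouts, by 0.68 ± 0.12 (adjusted p = 0.0073) and 0.53 ± 0.12 (adjusted p = 0.016), and Ppargc1b in the p38α/γ knockout alone among the calls, by 0.64 (adjusted p = 0.044). Yy1, which binds the AAGATGGCG letters, fell by 0.40 (adjusted p = 0.043) and 0.53 (adjusted p = 0.015), and Gabpa fell by 0.70 (adjusted p = 0.042) and Pprc1, a PGC-1-related coactivator, by 0.57 (adjusted p = 0.041) in the p38α/γ knockout. Myc rose by 0.94 in the p38α knockout (adjusted p = 0.020). Nrf1 gave -0.05 and -0.16 with no call.

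Of the products of the mitochondrial genome, the protein genes had negative medians and the 2 ribosomal RNAs positive changes. Of 13 mitochondrially encoded protein genes, 1 fell in the p38α knockout and 4 in the p38α/γ knockout, beside 10.4% and 14.4% of all genes called lower. Their medians were -0.23 and -0.29. mt-Nd4l, a subunit of complex I, was 564 to 625 in controls, 220.2 to 417 in the p38α knockout and 180.2 to 309 in the p38α/γ knockout, and fell by 0.99 (adjusted p = 0.022) and 1.38 (adjusted p = 0.0064). The ribosomal RNAs mt-Rnr1 (0.37 and 0.38, adjusted p = 0.11 and 0.080) and mt-Rnr2 (0.19 and 0.03) were not called. The libraries were made from polyadenylated RNA, which can capture these transcripts unevenly.

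Lists of cell and fibre-type markers gave unlike counts of calls. Beside them stand 7.32% and 11.2% of all tested genes called higher in the 2 knockouts, and 10.4% and 14.4% called lower. Of 20 macrophage markers, all detected in every library, 16 rose in the p38α knockout and 19 in the p38α/γ knockout, and their summed value was 196 to 259 in controls, 356 to 797 in the p38α knockout and 499.7 to 781 in the p38α/γ knockout. Of 14 fibro-adipogenic markers, 1 and 7 rose, with sums of 2160 to 2775, 2313 to 3988 and 3228 to 4467. Of 12 endothelial markers 1 (8.33%) rose and 2 fell in the p38α/γ knockout, near the shares of all genes, and 0 were called in the p38α knockout. The 8 muscle-defining genes summed to 139000 to 151800 in controls, 84140 to 121500 in the p38α knockout and 102300 to 106000 in the p38α/γ knockout. The lowest sum was in replicate 1 of the p38α knockout, where the members and the macrophage markers were highest. This did not hold in the other groups. Control 2 had the lowest members and muscle-defining sum but the highest macrophage sum of the controls. Replicate 3 of the p38α/γ knockout had the highest members but the lowest macrophage sum of its group. Of 11 fast-fibre markers, which include muscle-defining genes, 10 had negative changes in each knockout, with 3 and 2 called lower and medians of -0.41 and -0.31. Of 10 slow-fibre markers, 4 had positive changes in the p38α knockout and 9 in the p38α/γ knockout, with 0 called by limma in either (0 also at an unadjusted p under 0.05) and medians of -0.09 and 0.46. The median slow-fibre deviation from the control mean was 0.27, 0.43 and -0.63 in controls, 0.69, 0.16 and -1.12 in the p38α knockout and 0.32, 0.28 and 0.85 in the p38α/γ knockout. It was highest in replicate 1 of the p38α knockout and replicate 3 of the p38α/γ knockout, the libraries where the members were highest in each group. Among controls the order was the reverse, with the highest slow-fibre deviation in control 2, where the members were lowest. Of 8 adipocyte markers, 0 rose and 1 fell in each knockout, with medians of -0.56 and 0.27. Their median deviation varied widely already among controls, from -1.22 to 0.74. In bulk tissue, fewer cells of a type and less RNA per cell cannot be told apart. The part of these lists in the members' values was not tested.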

How the data were processed

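RNA from 9 gastrocnemius libraries (3 control, 3 p38alphaMCK-KO, 3 p38alpha/gammaMCK-KO) was used. Per the labels' protocols, 100 ng of RNA with an integrity number above 8 gave directional polyA libraries, sequenced as 51-base single reads. The submitters' processing notes name CASAVA 1.8, cutadapt, RSEM 1.3.1, limma and GRCm38, with no order. The deposited values are a normalised expression signal per gene, made by the authors, and the normalisation is not given in the sources used here. Columns were matched to samples by name.

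Values were analysed as log2(value + 1) for 13137 genes with at least 1 in at least 3 libraries. limma 3.58.1 (R 4.3.3) fitted 3 group means over all 9 libraries with a trended variance, and p-values were Benjamini-Hochberg adjusted over all genes in each comparison. The fit was tested on simulated data. Standard errors are the model's. A fold change on this scale understates that of low genes. GENCODE M21 gave coordinates and exon lengths, with 13166 of 13179 identifiers matched.

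The members and lists were chosen with earlier results of these data known. Values are given for up to 8 called members per direction and knockout with the lowest p, the 4 lowest p where fewer were called, the 3 highest and 3 lowest levels per kb in each subunit, the role groups, the name exceptions, and up to 3 called genes of each other list. More genes of the lists are named where all calls of a list are given. Mrpl50, Mrpl30, Mrps31, the place of Mrpl47 in its role group and the promoters shown were picked after their values were seen.

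The labels' replicate numbers were checked by correlating deviations from group means. For p38alpha/gammaMCK-KO against control the same-numbered libraries correlated at 0.111, 0.124 and 0.148, and each library best with its own number. These numbers were therefore taken as pairs, though the labels do not say what a number marks. The main fit left the pairs out, and counts with the numbers as a block are given beside it. The evidence for pairs is weak, since differently numbered libraries of the 2 knockouts correlated at up to 0.351. Alternatives covered filters, pseudocounts, scaling, variance settings, the block, 6 libraries alone and each library left out.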

Additional observations from a re-analysis of the deposited data

How the results depend on the processing

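Alternatives were a filter of 5 or none, pseudocounts of 0.25 and 5, TMM factors, median of ratios, quantile normalisation, variance without trend or robust, a replicate block, the 6 libraries of a comparison alone, and each library left out. Added after the data were seen were scaling to library totals and the 6 libraries alone with a block. Read-based count models were not run, because no source states that the values are reads. No change of the 15 called members, or of the 4 members with the lowest p between the knockouts, turned sign.

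In the p38α knockout the members called higher numbered 9. They numbered 47 with totals, 3 with the replicate block, 3 on 6 libraries alone and 0 on 6 libraries with the block (20 at an unadjusted p under 0.05 by limma), and 1 to 14 without 1 library. All tested genes called higher numbered 962, against 2506 with totals and 634 with the block. On 6 libraries they numbered 508, with the block on them 80, and without 1 library 287 to 1501. In the p38α/γ knockout the members called higher numbered 11, against 45 with totals and 7 with the block. They numbered 23 on 6 libraries alone, 23 with the block on those 6, and 2 to 23 without 1 library. All tested genes called higher numbered 1476, against 3338 with totals and 1029 with the block. On 6 libraries they numbered 2619, with the block on them 2698, and without 1 library 339 to 2548. Members called lower there numbered 0, against 2 on 6 libraries alone, 1 with the block on them and 0 to 2 without 1 library. All tested genes called lower numbered 1892, against 2917, 2939 and 520 to 2840. Between the knockouts the members called numbered 0 each way, 0 with the block and 0 to 3 each way without 1 library. Without 1 library, all tested genes called there ran from 8 to 1013 higher and from 15 to 859 lower.

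With totals the large and small subunit medians were 0.39 and 0.38 in the p38α knockout and 0.36 and 0.36 in the p38α/γ knockout. Quantile normalisation gave 0.29 for the large subunit in the p38α knockout. Without 1 library, the subunit medians ran from 0.12 to 0.23 in the p38α knockout and from 0.11 to 0.23 in the p38α/γ knockout. The cause of these shifts was not tested.

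In the p38α knockout and between the knockouts the replicate numbers did not pair the samples (correlations -0.0858, -0.0866 and 0.0951, and -0.331, -0.228 and 0.0885). Among all members the standard error was 0.07 to 0.18, beside medians of 0.18 and 0.16 for the 2 comparisons with control.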

Other observations

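A pseudogene row, Mrpl48-ps, was at the lowest value its libraries hold in all control and p38α knockout libraries (0.0178 to 0.0217) and at 1.804, 2.78 and 2.23 in the p38α/γ knockout. The parent gene Mrpl48 gave 46.2 to 52.7 in the p38α/γ knockout and 46.6 to 48.3 in controls. The rows Mrps36-ps1 and Mrpl23-ps1 ran from 0.231 to 3.83 and from 1.40 to 3.46 over the 9 libraries, with overlapping groups. These rows were looked at after the member rule had left them out.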
